A study of Mus musculus with 2 samples.

Results

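NK cells with high Ifng were the splenic natural killer cells that carried at least 10 Ifng transcripts after stimulation. Among the 16829 barcodes of the series, 16325 had at least 200 genes and at most 10% mitochondrial transcripts, and 4319 of these passed a gate for NK cells. The gate asked for at least 2 transcripts, counted as unique molecular identifiers (UMIs), of Ncr1 and Klre1 together, and for none of Cd3d, Cd3e, Cd3g, Cd79a, Ms4a1 or Lyz2. Of the gated cells, 1041 had 10 or more Ifng UMIs (high Ifng), 2031 had 1 to 9 (low Ifng) and 1247 had none. The cells were thus chosen by their measured Ifng, so the Ifng values below describe the choice and are no finding.

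The cells came from spleens of 8-week-old wild-type C57BL/6 mice, all sensitized to ovalbumin (OVA) on days 0 and 10. Mice were left untreated, received Standard desensitization with OVA in PBS on days 20, 22 and 24 and OVA in alum on days 40 and 60, or received DCIR-2-Fusion protein, which carries OVA to dendritic cells, on days 20, 22 and 24. On day 80 the mice were challenged with OVA before harvest, according to the methods of the study, and the spleen cells of every group were restimulated with PMA and ionomycin for 3 h, sorted for CD45 and split by CD11b, and the CD11b- and CD11b+ cells were mixed in equal parts. The sort sets how many NK cells were present and could shift their makeup, since mature NK cells carry CD11b. All groups were run as 1 pool with 4 hashtags (9 to 12), antibody tags that mark the source of a cell. No source used here says which condition or which mice a hashtag holds, so the conditions were not compared. With 1 pool and no labelled replicates there is no test between samples, and all 95% intervals cover counting error only.

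NK cells are innate lymphocytes that recognize altered cells through germline-encoded receptors. They kill with granules that hold perforin and granzymes, and they secrete IFN-γ, the product of Ifng, which activates macrophages and raises antigen presentation. PMA activates protein kinase C and ionomycin raises intracellular calcium. Together they bypass the surface receptors and act through AP-1, NF-κB and NFAT, the latter activated by calcineurin.

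The Ifng gene lies on the plus strand of chr10:118441046-118445892 of GRCm38. Sequence upstream of the RefSeq start is shown for Ifng, Ccl3 and Xcl1, because these are the induced cytokine gene that chose the cells and 2 of the chemokine genes that followed it. Each run holds the 250 bases before the start, 5′ to 3′ on the strand of the gene. The windows lie at chr10:118440796-118441045 (plus strand) for Ifng, chr11:83649379-83649628 (minus strand) for Ccl3 and chr1:164935523-164935772 (minus strand) for Xcl1 in GRCm38.p6. Capitals mark matches on either strand to GGAAA, the core bound by NFAT, or to TCACACC, a motif bound by T-box factors such as T-bet.

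Ifng: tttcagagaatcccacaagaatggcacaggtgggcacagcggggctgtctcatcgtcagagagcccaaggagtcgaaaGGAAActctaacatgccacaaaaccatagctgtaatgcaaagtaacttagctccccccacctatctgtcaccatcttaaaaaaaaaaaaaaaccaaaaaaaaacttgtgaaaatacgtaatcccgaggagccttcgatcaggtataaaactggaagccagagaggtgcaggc

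Ccl3: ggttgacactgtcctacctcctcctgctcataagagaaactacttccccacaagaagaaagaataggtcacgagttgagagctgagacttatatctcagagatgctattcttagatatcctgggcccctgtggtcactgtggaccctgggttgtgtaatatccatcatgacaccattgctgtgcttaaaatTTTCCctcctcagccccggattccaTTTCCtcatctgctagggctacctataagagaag

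Xcl1: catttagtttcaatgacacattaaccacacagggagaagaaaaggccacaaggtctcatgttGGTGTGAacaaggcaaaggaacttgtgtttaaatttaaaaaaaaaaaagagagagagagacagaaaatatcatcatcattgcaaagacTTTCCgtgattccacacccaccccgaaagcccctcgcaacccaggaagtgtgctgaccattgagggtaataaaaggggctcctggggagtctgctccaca

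GGAAA occurred 1 time in the Ifng window, 2 times in that of Ccl3 and 1 time in that of Xcl1. It occurred in 55.6% of the 32851 RefSeq promoter windows of this length. The single TCACACC match lay upstream of Xcl1, and 3.33% of all windows held one. TGANTCA, the AP-1 motif (6.75% of all windows), and GGGNNTTCC, an NF-κB core (4.98%), had no match in these 3 windows. Such matches describe letters and say nothing about binding. Of 13 genes looked up, 11 had a RefSeq window in the table used. Ccl4 and Egr3 had none.

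Ifng was spread unevenly among the gated NK cells. The cells with high Ifng, 24.1% of the gate (22.8 to 25.4), held 37827 of its 44657 Ifng UMIs, or 84.7% (84.4 to 85.0). Their Ifng ran from 10 to 545 UMIs per cell, with a median of 22 and quartiles of 14 and 39. Between 10 and 19 UMIs were found in 450 cells, 20 to 49 in 400 cells, and 50 or more in 191 cells, of which 65 had 100 or more. The 104 cells with the most Ifng held 37.7% of the Ifng UMIs of all 1041 cells. In the median cell Ifng made up 0.348% of the UMIs, and in the highest 8.54%.

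The threshold cut through a continuous range. The 171 cells with 8 or 9 Ifng UMIs and the 138 with 10 or 11 had median depths of 5651 and 5595 UMIs other than Ifng. Ccl3 stood at 7727 CPM (UMIs of a gene per 1000000 UMIs, with Ifng left out of the total) just below the threshold and at 8030 CPM just above it, and Gzma at 4101 and 4406 CPM. The neighbours on each side of the threshold thus had similar levels of these genes.

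Of all Ifng UMIs in cells that passed the filter, 33.6% (33.3 to 33.9) were in NK cells with high Ifng. Cells outside the gates for NK, T and B cells held the most, 43.9%, and 934 of these 8463 cells had 10 or more Ifng UMIs. T cells gated with at least 2 UMIs of Cd3d, Cd3e and Cd3g together, and no UMI of Ncr1, Klre1, Cd79a, Ms4a1 or Lyz2, held 16.1%. Gated B cells were taken as the background, but whether they lack Ifng was not tested. Of 2248 such cells, 6.54% (5.55 to 7.64) had an Ifng UMI at a median depth of 9280.5 UMIs. Of the 2248, 8 (0.356%) had 10 or more, with up to 52. In NK cells with high Ifng the median depth was 6391 UMIs. Cells with 10 or more Ifng UMIs were thus rare among B cells.

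Of the other 9 NK markers looked at, 5 had a UMI in most of the cells. Klrk1, the activating receptor NKG2D, had a UMI in 96.4% of the cells with high Ifng, Nkg7 in 92.6%, Tyrobp, the adaptor DAP12, in 90.0% and Il2rb, the β chain of the IL-2 and IL-15 receptors, in 89.5%. Gated B cells had these genes in 2.98%, 4.72%, 16.3% and 16.2% of cells. Klrd1, which encodes CD94, had one in 49.9% and Klrb1c, which encodes NK1.1, in 29.5%, against 0.845% and 0.445% of the B cells. Eomes, which separates NK cells from ILC1, had a UMI in 52.1% of the cells against 1.07% of the B cells. Itga1 and Cxcr6, markers of ILC1, were found in 2.11% and 1.54% of the cells. Tbx21, another factor of NK cells, did not separate the gates, with a UMI in 33.0% of the cells against 63.7% of the B cells, and Fcgr3, which encodes CD16, was low, in 4.03%.

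Transcripts of the T cell receptor constant regions were common. Trbc1 had a UMI in 66.6% of the cells with high Ifng, against 63.5% of those with low Ifng, 65.9% of T cells with high Ifng and 3.47% of B cells, and 82.9% of the cells with high Ifng had a UMI of Trac, Trbc1, Trbc2 or Trdc. Summed over 9 T cell genes, the cells with high Ifng had 572 CPM and those with low Ifng 499.6 CPM, with Trbc1 the most abundant in both. Cd4, Cd8a and Cd8b1 had UMIs in 2, 3 and 5 of the 1041 cells. The 6 B cell genes summed to 782.5 and 557.5 CPM, but 2496 of the 3019 Igkc UMIs of the cells with high Ifng were in 1 cell. The 5 myeloid genes summed to 224.3 and 347.3 CPM, led by Cst3. The 3 basophil genes had 2 UMIs in cells with high Ifng and 112 in those with low Ifng, of which 90 Mcpt8 UMIs were in 1 cell. None of 3 red cell genes had more than 3 UMIs in either group. Scrublet, a doublet caller, marked 6.44% of the cells with high Ifng and 4.63% of those with low Ifng. Among the cells matched on depth for the comparison below, it marked 66 of 1037 with high Ifng and 78 of 1037 with low Ifng. The part of such cells in the differences below was measured by leaving them out.

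The share of gated NK cells with high Ifng, which the rule itself sets, is given by hashtag as a description. It was 21.1% of 379 cells in hashtag 9 (17.1 to 25.6), 23.2% of 556 in hashtag 10 (19.75 to 26.9), 34.2% of 655 in hashtag 11 (30.6 to 38.0) and 14.99% of 587 in hashtag 12 (12.2 to 18.1). Hashtag 11 had the highest value and hashtag 12 the lowest. The intervals cover the counting of cells, which are not replicates, so no difference between hashtags was tested. The median depth of the gate was 5333 UMIs in hashtag 11 and 5356 in hashtag 12, against 6089 and 5988 in hashtags 9 and 10. A second way of calling hashtags assigned other numbers of gated cells, 96, 364, 461 and 733, and gave shares of 22.9%, 26.1%, 36.7% and 15.6%. The first way of calling assigned more than 1 hashtag to another 1373 gated cells and none to 769. Of these, 25.6% and 22.0% had high Ifng. These are values of unlabelled samples, and what sets them apart was not tested.

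**Figure D1:**
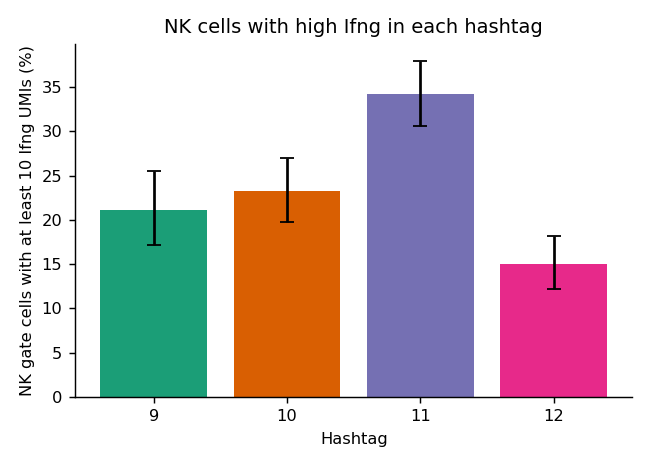
Share of gated NK cells with at least 10 Ifng UMIs (y axis, percent) in each of the 4 hashtags (x axis). Bars show the share and lines the exact 95% binomial interval, which runs from 30.6 to 38.0% in hashtag 11 and from 12.2 to 18.1% in hashtag 12.

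To ask which genes went with Ifng, each cell with high Ifng was paired with a cell with low Ifng of nearly the same number of UMIs other than Ifng. This gave 1037 pairs with median depths of 6346 and 6342 UMIs. Among 9752 genes with at least 50 UMIs over both groups, 41 had a CPM at least 2-fold higher with high Ifng (0.42%) and 144 at least 2-fold lower (1.48%). Many of these rested on few cells. With UMIs required in at least 20 cells of the higher group, 24 genes (0.246%) were at least 2-fold higher and 110 (1.13%) at least 2-fold lower. Ratios are to be read against the median ratio, which was 0.938 over the genes tested (-0.09 on the log2 scale), with 3131 of them above 1. Of all genes tested, 5.95% had an interval above 1 and 23.8% one below it.

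The chemokines Ccl3, Ccl4 and Xcl1 carried the main difference. Ccl3 and Ccl4 encode MIP-1α and MIP-1β, which attract monocytes and T cells, and Xcl1 encodes lymphotactin, the ligand of XCR1 on cross-presenting dendritic cells. Together the 3 genes made up 6.35% of all UMIs other than Ifng in cells with high Ifng and 2.80% in the matched cells with low Ifng. All 3 were found together in 1028 of 1037 cells (99.1%) and in 996 (96.0%), so they differed in amount rather than in presence.

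Ccl3 stood at 12863 CPM (12786 to 12941) with high Ifng and 4053 CPM (4009 to 4097) with low Ifng, a ratio of 3.17 (3.13 to 3.21). The median cell had 83 Ccl3 UMIs in the first group and 19 in the second, with highest cells of 555 and 520. The distributions overlapped, but the lower quartile of the cells with high Ifng, 46 UMIs, lay above the upper quartile of the others, 43. In hashtags 9 to 12 the ratio was 3.06, 2.86, 2.37 and 2.60.

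Ccl4 was the more abundant of the pair, at 35497 CPM (35368 to 35627) against 15925 CPM (15838 to 16012), with a median of 256 against 88 UMIs per cell. Its ratio was 2.23 (2.21 to 2.24) in matched cells and between 1.81 and 1.96 in the 4 hashtags, where cells were not matched on depth. Xcl1 stood at 15106 against 8003 CPM, with medians of 93 and 44 UMIs and a ratio of 1.89 (1.87 to 1.91), and between 1.64 and 1.80 in the hashtags. All 3 chemokine genes were thus higher in every hashtag. B cells had a UMI of Ccl4 in 61.1% of cells, of Ccl3 in 34.4% and of Xcl1 in 24.5%, but with medians of 1, 0 and 0 UMIs.

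Ccl5, which encodes RANTES and is kept at a high level in resting NK cells, showed no such difference, at 9441 and 9302 CPM (ratio 1.015, 1.005 to 1.025). Its ratio was below 1 in each hashtag, between 0.82 and 0.93. Ccl1 was rare, with UMIs in 50 and 20 of the matched cells, at 49.3 and 15 CPM (ratio 3.29, 2.68 to 4.06; 1.40 to 19.8 in the hashtags). Without cells that had a T cell receptor UMI its ratio was 1.09, from 23 and 21 UMIs, and against cells without Ifng it was 23.45. Ccl9 was found in 134 and 90 cells, at 110.7 and 78.2 CPM (ratio 1.41), but its ratio was 0.91 in hashtag 10. Of the 9 chemokine genes, all were tested and 3 were at least 2-fold higher, against 0.42% of all genes. The 2 that were at least 2-fold lower (1.48% of all genes), Cxcl9 and Cxcl16, had UMIs in at most 39 cells of a group and ratios on both sides of 1 among hashtags. The median ratio of the 9 was 1.41 against 0.938 for all genes tested.

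**Figure D2:**
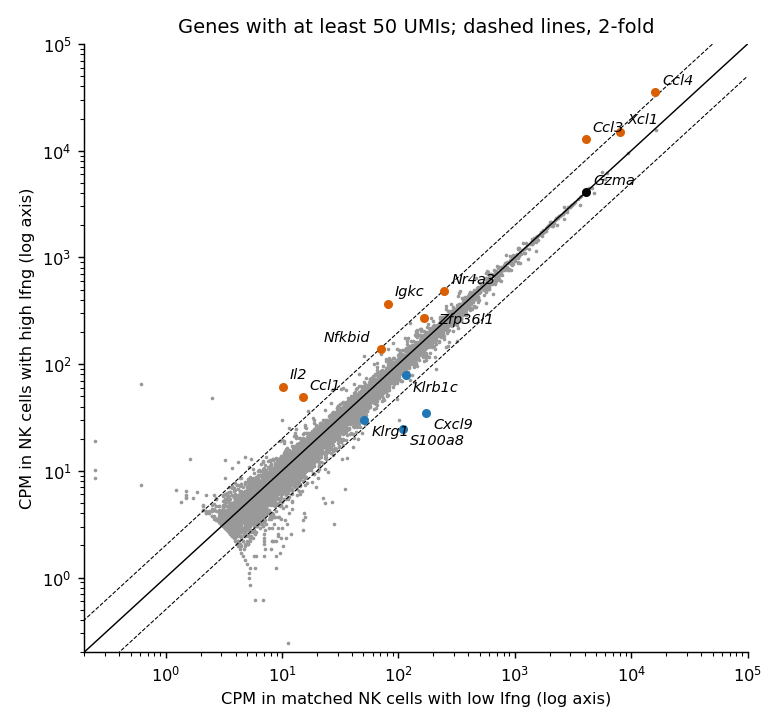
CPM in NK cells with high Ifng (y axis, log scale) against CPM in depth-matched NK cells with low Ifng (x axis, log scale) for genes with at least 50 UMIs and a UMI in both groups. The solid line marks equal levels and the dashed lines 2-fold, with Ccl3 and Ccl4 above the upper line at 12863 and 35497 CPM, Xcl1 just under it and Gzma on the line of equal levels.

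Among other secreted cytokines, Csf2, which encodes GM-CSF, had UMIs in 160 and 104 matched cells, at 43.2 CPM (38.8 to 48.0) and 26.4 CPM (23.0 to 30.2), a ratio of 1.64 (1.38 to 1.95) that ranged from 1.34 to 3.74 in the hashtags. Tnf was at 11.4 and 7.19 CPM, below the 48.75 CPM of B cells, and its ratio of 1.58 was 0.40 in hashtag 10. Tnfsf14, the ligand LIGHT, stood at 101.6 and 65.5 CPM (ratio 1.55, 1.39 to 1.73), above 1 in every hashtag. Fasl, which encodes Fas ligand, had a ratio of 1.11. Tgfb1 stood at 299.2 and 296.1 CPM (ratio 1.01). The cytokine list held 18 genes with Ifng. Of the 13 others that were tested, 3 (Il5, Il22 and Il2) were at least 2-fold higher and 3 (Csf1, Il4 and Il6) at least 2-fold lower, against 0.42% and 1.48% of all genes. Single cells set most of these values: 155 of the 157 Il5 UMIs, all 86 Il22 UMIs and 381 of the 503 Il2 UMIs of the cells with high Ifng were each in 1 cell, as were 223 of the 224 Il4 UMIs of those with low Ifng.

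Among the immediate early factors, which are switched on without new protein synthesis, Nr4a3 and Nr4a1, orphan nuclear receptors, had the largest ratios. Nr4a3 stood at 482.8 CPM (467.9 to 498.1) against 247.9 CPM (237.1 to 259.0), a ratio of 1.95 (1.84 to 2.06), and had a UMI in 77.5% against 54.2% of cells. Nr4a1, which encodes Nur77, was at 242.8 and 126.2 CPM (ratio 1.92, 1.78 to 2.08) and Nr4a2 at 284.5 and 171.4 CPM (ratio 1.66, 1.55 to 1.78). All 3 were higher in every hashtag, between 1.25 and 2.08. These shares of cells are no sign of NK origin, since B cells had Nr4a3 in 49.8% of cells and Nr4a1 in 36.9%.

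The rest of the immediate early list was graded. Egr3 had a ratio of 1.68, Fosl2 of 1.42, Egr1 of 1.34 and Egr2 of 1.27, and all but Egr2, at 0.98 in hashtag 12, were above 1 in every hashtag. Junb (ratio 1.14) and Myc (1.04) were closer to equal levels, and Fos (0.86), Jun (0.93) and Jund (0.95) were on the other side. Of the 18 genes, none was 2-fold different, 11 had an interval above 1 and 2 one below it, against 5.95% and 23.8% of all genes tested, and the median ratio was 1.16. For Fos, 153 of the 900 UMIs with low Ifng were in 1 cell and hashtags lay on both sides of 1.

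In the NF-κB list, Nfkbid, which encodes the nuclear inhibitor IκBNS, stood out at 137.4 CPM (129.4 to 145.6) against 70.9 CPM (65.2 to 76.99), a ratio of 1.94 (1.75 to 2.15). It was higher in every hashtag, between 1.48 and 1.66. The subunits Nfkb1 (ratio 1.02), Rel (1.13), Rela (0.97) and Relb (0.89) and the inhibitors Nfkbia (1.12) and Tnfaip3 (0.96) lay closer to 1. Tnip1, a partner of A20, was lower at 0.75 (0.66 to 0.86) and below 1 in every hashtag. Of the 14 genes, 4 had an interval above 1 and 4 one below it, against 5.95% and 23.8% of all genes.

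NFAT signalling genes also split. Nfatc1, itself a target of NFAT, stood at 214.4 and 156.2 CPM (ratio 1.37, 1.28 to 1.48), and Orai1, the pore of the store-operated calcium channel, at 349.5 and 256.4 CPM (ratio 1.36, 1.29 to 1.44). Both were higher in every hashtag. The catalytic subunits of calcineurin were lower: Ppp3ca at 0.75, Ppp3cc at 0.78 and Ppp3cb at 0.82, each below 1 in every hashtag. The calcium sensors Stim1 and Stim2 had ratios of 0.86 and 0.77. Of 11 genes, 2 had an interval above 1 and 5 one below it, where 23.8% of all genes tested had one below it.

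Among genes that limit cytokine output, 3 of 6 genes of cytokine mRNA decay had an interval above 1 and 2 one below it, and of 10 tested genes of MAP kinase feedback 2 and 1, against 5.95% and 23.8% of all genes tested. Zfp36l1, which encodes a protein that binds AU-rich elements and marks cytokine mRNAs for decay, stood at 267.6 CPM (256.5 to 279.1) against 164.8 CPM (156.1 to 173.9), a ratio of 1.62 (1.52 to 1.74), and between 1.26 and 1.93 in the hashtags. Its relatives Zfp36 and Zfp36l2 had ratios of 1.05 and 1.16, and Zc3h12a, the RNase regnase-1, of 1.23, while Rc3h1 and Rc3h2, which encode roquin proteins, were at 0.93 and 0.85. Dusp2, a phosphatase of MAP kinases, had a ratio of 1.44 (1.34 to 1.56) and was above 1 in every hashtag, while Dusp6 was at 0.78 (0.66 to 0.91) and below 1 in every hashtag. Socs1, a brake on IFN-γ signalling, stood at 67.7 and 50.5 CPM (ratio 1.34).

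**Figure D3:**
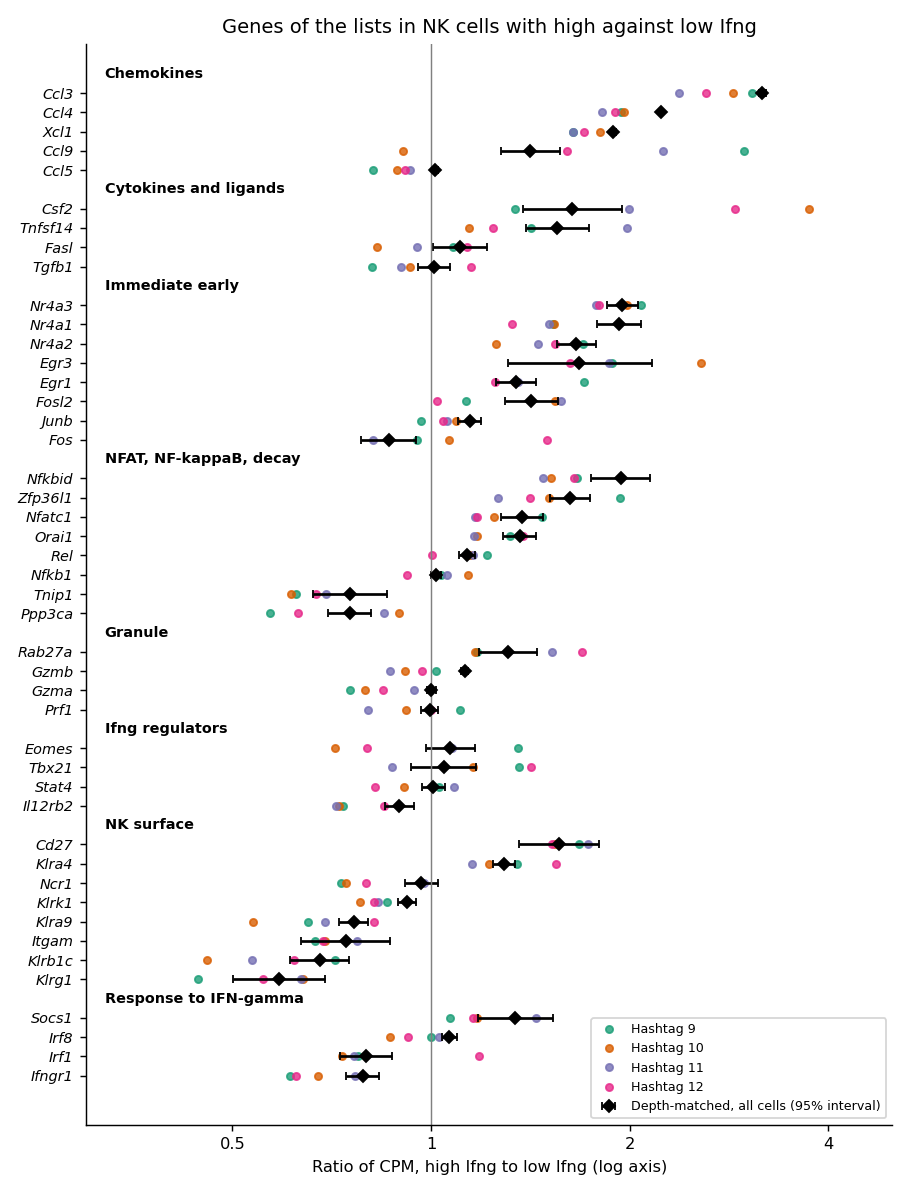
Ratio of CPM between NK cells with high and low Ifng (x axis, log scale) for genes of the lists (rows). Diamonds show the 1037 depth-matched pairs with the 95% counting interval and coloured points the 4 hashtags, not matched on depth. Ccl3, Ccl4, Xcl1, the Nr4a genes and Nfkbid lie right of 1 in every hashtag, Klrg1 and Klrb1c lie left of it. The diamonds of Gzma and Prf1 lie at 1.00 and 0.99, and all 4 hashtag points of Gzma lie left of 1.

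Gzma and Prf1 were at like levels with high and low Ifng. Gzma, which encodes granzyme A, stood at 4064 CPM (4020 to 4108) and 4061 CPM (4017 to 4106), and Prf1, which encodes perforin, at 1031 and 1036 CPM, ratios of 1.00 (0.99 to 1.02) and 0.99 (0.96 to 1.02). In the hashtags Gzma was between 0.75 and 0.94, and over 20 other settings between 0.82 and 1.02. Gzmb was at 6358 and 5658 CPM (ratio 1.12, 1.11 to 1.14) in matched cells, and between 0.87 and 1.02 in the hashtags. Rab27a, which drives granule release, was at 1.31 (1.18 to 1.45) and above 1 in every hashtag. None of 13 tested granule genes was 2-fold different, 4 had an interval above 1 (Rab27a, Serpinb6b, Gzmb and Srgn, ratios 1.035 to 1.31) and none one below it, against 5.95% and 23.8% of all genes, and their median ratio was 1.02.

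Of the transcription factors known to act on Ifng in NK cells, Tbx21, Eomes and Stat4 had intervals that span 1. Tbx21, which encodes T-bet, stood at 79.0 and 75.6 CPM (ratio 1.04, 0.93 to 1.17), Eomes at 140.4 and 131.3 CPM (1.07, 0.98 to 1.16) and Stat4 at 617.8 and 613.2 CPM (1.01, 0.97 to 1.05). The IL-12 receptor chain Il12rb2 was slightly lower (0.90), and Il18r1, a chain of the IL-18 receptor, higher (1.25) but at 0.92 in hashtag 9. Of 19 tested regulators 3 had an interval above 1 and 6 one below it, against 5.95% and 23.8% of all genes, and the median ratio was 1.01.

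Surface receptors that mark stages of NK cell maturation differed in both directions. Cd27, a receptor of less mature NK cells, stood at 65.4 CPM (59.9 to 71.2) against 41.9 CPM (37.6 to 46.6), a ratio of 1.56 (1.36 to 1.79), and was 1.52 to 1.73 in the hashtags. Klrg1, an inhibitory receptor of mature cells, was at 29.99 CPM (26.3 to 34.0) against 51.0 CPM (46.2 to 56.1), a ratio of 0.59 (0.50 to 0.69), and 0.44 to 0.64 in the hashtags. Itgam, which encodes CD11b, had a ratio of 0.74 (0.64 to 0.87), and 0.67 to 0.77 in the hashtags. In the list of 8 genes of mature NK cells, 7 were tested, with a median ratio of 0.775, 1 interval above 1 (Prdm1, 1.14) and 3 below it, where 5.95% and 23.8% of all genes had one. The list of 8 genes of immature cells had a median of 0.845. Cd27 was its only gene with an interval above 1, and Il7r (0.61), Tcf7 (0.79) and Emb (0.88) had intervals below 1, but each was above 1 in at least 1 other setting.

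Klrb1c, which encodes NK1.1, was lower at 78.6 CPM (72.6 to 84.9) against 115.9 CPM (108.6 to 123.6), a ratio of 0.68 (0.61 to 0.75), and below 1 in every hashtag. Cd96, an inhibitory receptor for CD155, was scarce and lower, with 30 and 65 UMIs and a ratio of 0.46 (0.29 to 0.71). The gate genes Ncr1 and Klre1 both had a ratio of 0.97. Among the Ly49 receptors, Klra4 (Ly49D, an activating receptor) was higher at 747.6 and 579.2 CPM (1.29, 1.24 to 1.34), and Klra9 (Ly49I, an inhibitory one) lower at 328.3 and 430.3 CPM (0.76, 0.73 to 0.80), each on 1 side in all hashtags. Ly49 genes share near-identical sequence, so reads can be split among them and these values are uncertain. Of the activation receptors, Havcr2, which encodes TIM-3, had a ratio of 1.59, above 1 in every hashtag but at 0.83 in 1 of 20 settings, and Tnfrsf9, which encodes 4-1BB, one of 1.00 at 1561 CPM in both groups.

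Genes of the IFN-γ response list, which also holds the receptor chains Ifngr1 and Ifngr2, were mostly lower in the cells with the most Ifng. Of 17 genes, 11 had an interval below 1 and 2 one above it, and the median ratio was 0.787 against 0.938 for all genes tested, of which 23.8% had an interval below 1 and 5.95% one above it. Myeloid genes were also lower in the same comparison (median ratio 0.363, 3 of 4 at least 2-fold lower against 1.48% of all genes, of which S100a8 and S100a9 rested on 1 cell and were above 1 in 3 of 20 settings each), and the part of myeloid transcripts in the values of this list was not tested. Ifngr1, a chain of the receptor, stood at 254.1 and 322.8 CPM (0.79, 0.74 to 0.83) and was below 1 in every hashtag. The GTPases Gbp2, Gbp4 and Irgm1 had ratios of 0.58, 0.68 and 0.58, but each was above 1 in at least 2 hashtags. Irf8, at 1493 and 1402 CPM, had a ratio of 1.07, and 0.86 to 1.03 in the hashtags.

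The remaining lists are given by their medians, against 0.938 for all genes tested. The median ratio was 0.993 for 15 genes of Myc and glycolysis, 0.973 for 6 of the cell cycle, 1.01 for 8 heat shock genes, of which 4 had an interval above 1, and 0.913 for 7 tested genes of egress and homing. Hspa1b, the heat shock gene at least 2-fold higher, had 53 of its 70 UMIs in 1 cell, and Ccr7, the homing gene at least 2-fold lower (0.47), was at 1.91 in hashtag 10. Over all tested genes of a list, the median ratio was 0.966 for 21 NK receptor genes, 1.04 for 9 Ly49 genes, 1.11 for 11 TNF ligands, 1.00 for 14 NF-κB genes, 0.973 for 10 MAP kinase feedback genes, 1.11 for 6 genes of cytokine mRNA decay, 1.10 for 11 activation receptors and 1.20 for 3 SOCS genes. Intervals above 1 were found for 5 of the TNF ligands, 5 of the activation receptors and all 3 SOCS genes, against 5.95% of all genes tested. Among genes of other cells it was 1.11 for 6 T cell genes, 0.80 for 4 B cell genes, 0.363 for 4 myeloid genes and 1.04 for 7 ILC genes, and 1 basophil gene was tested. The TNF ligand at least 2-fold higher was Tnfsf11, with UMIs in 14 and 10 cells. Trac was higher at 57.2 and 26.8 CPM (2.13, 1.81 to 2.52) and Trdc at 73.3 and 52.3 CPM (1.40, 1.24 to 1.59), both in every hashtag. Without every cell that had a Trac, Trbc1, Trbc2 or Trdc UMI, 178 of the 1041 cells with high Ifng were left, and in these the ratio of Ccl3 was 3.17, of Ccl4 2.15, of Xcl1 1.88 and of Nr4a3 1.95. Rarer genes moved more: Csf2 was at 3.82 (50 and 13 UMIs), Cd27 at 2.54 (41 and 16 UMIs), Ccl1 at 1.09 and Ciita at 0.99 (12 and 12 UMIs).

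Beyond the lists, a rule named the 15 highest and 10 lowest genes that had UMIs in at least 20 cells and the same side of 1 in all 4 hashtags. Besides genes given above, the highest included Dnm3 (a dynamin, 2.36), St5 (2.21), Pip5k1b (a lipid kinase that makes PIP2, 2.17), F730043M19Rik (2.09), Dyrk3 (a kinase, 1.97), Zbtb32 (a zinc finger repressor, 1.95) and Gm37083 (1.90). Pip5k1b was the best supported of these, with UMIs in 101 and 56 cells. Most were below 20 CPM, and Zbtb32 had 31 of its 158 UMIs in 1 cell. With the threshold set on the share of Ifng in a cell, Dnm3 was at 0.28, from 17 and 61 UMIs, and Dyrk3 at 1.14, from 24 and 21. Over all settings Dyrk3 ranged from 0.99 to 2.73, St5 from 1.23 to 5.96 and Zbtb32 from 1.24 to 2.87. The lowest were Cd81 (a tetraspanin, 0.21), Ciita (the regulator of MHC class II genes, 0.22), Rps6ka2 (0.23), S100a8 (0.23), S100a9 (0.30), Gm10874 (0.30), Ick (0.38), Tex9 (0.38), Arap3 (0.39) and Htr2b (0.41). The values of S100a8 and S100a9, which neutrophils express, came from 1 cell with low Ifng that held 677 of 881 and 573 of 818 UMIs. Over all settings Cd81 ranged from 0.047 to 0.496 and Gm10874 from 0.205 to 0.745.

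The levels of Ccl3, Ccl4, Xcl1 and Nr4a3 were graded with Ifng rather than set apart at the threshold. In cells with 4000 to 8000 UMIs other than Ifng, Ccl3 stood at 2098 CPM without Ifng (718 cells), 4100 CPM at 1 to 4 Ifng UMIs (822 cells), 6894 CPM at 5 to 9 (332 cells), 10506 CPM at 10 to 19 (252 cells), 18400.5 CPM at 20 to 49 (227 cells) and 25317 CPM at 50 or more (86 cells). No neighbouring intervals overlapped. Ccl4 went from 9846 to 60175 CPM and Xcl1 from 5655 to 22230 CPM over the same 6 steps. Nr4a3 went from 143.8 CPM (132.3 to 156.0) to 729.7 CPM (657.5 to 807.7).

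Other genes levelled off or went down. Nr4a1 reached 353.8 CPM at 20 to 49 Ifng UMIs and stood at 285.6 CPM (241.2 to 335.9) at 50 or more. Zfp36l1 went from 125.5 to 318.6 and 295.4 CPM. Across the threshold, Zfp36l1 rose from 179.3 CPM (160.7 to 199.3) at 5 to 9 Ifng UMIs to 282.1 CPM (255.2 to 311). Klrb1c went from 170.0 CPM (157.4 to 183.2) to 46.95 CPM (30.1 to 69.9) over the 6 steps, and Ifngr1 from 469.9 to 211.3 CPM. Klrg1 went from 70.9 to 43.0 CPM, with intervals that overlapped between its last 3 steps. Across the threshold, Klrg1 fell from 64.7 CPM (53.7 to 77.1) at 5 to 9 Ifng UMIs to 39.9 CPM (30.2 to 51.7). Gzma stayed between 5114 and 5720 CPM, Prf1 between 1173 and 1300 CPM and Ccl5 between 10124 and 11402 CPM. Gzmb was higher with Ifng, at 6963 CPM (6881 to 7045) without it and 8354 CPM (8105 to 8608) at 50 or more.

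**Figure D4:**
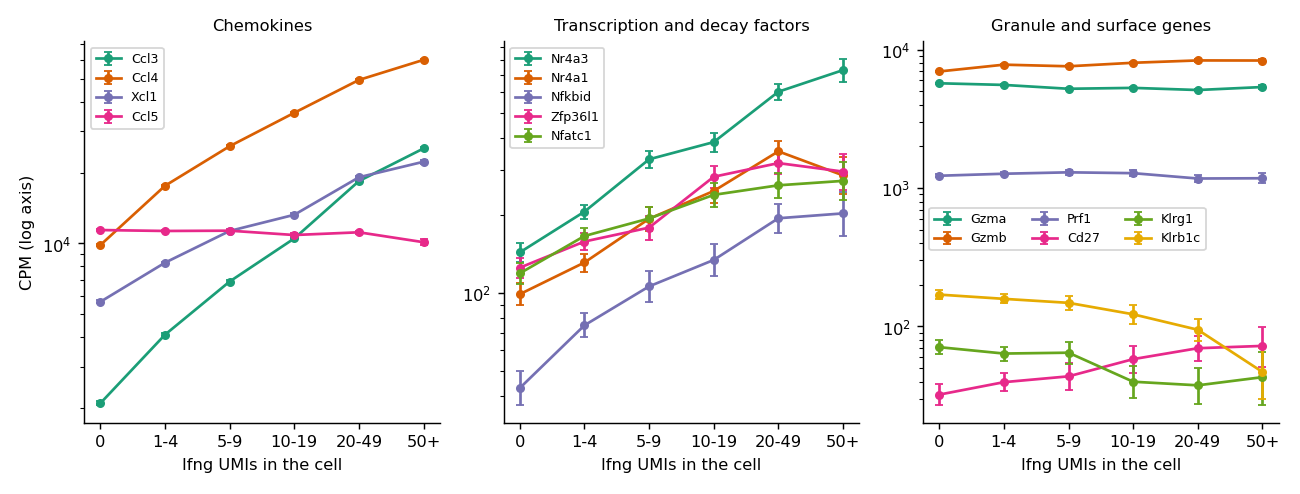
CPM (y axis, log scale) of genes in gated NK cells with 4000 to 8000 UMIs other than Ifng, by the number of Ifng UMIs in the cell (x axis, 6 steps). Points show the summed level and lines the 95% counting interval, with Ccl3 between 2098 and 25317 CPM and Gzma between 5114 and 5720 CPM.

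T cells with at least 10 Ifng UMIs were taken for comparison. The 934 such cells outside the 3 gates were not compared. There were 208 T cells, with a median depth of 10248.5 UMIs and a median of 34.5 Ifng UMIs, and 46.2% had a UMI of Cd8a or Cd8b1 and 14.4% one of Cd4. Each was paired with an NK cell with high Ifng of like depth (median 10023 against 10017.5 UMIs without Ifng), and Ifng then was at 3558 CPM in the NK cells and 7439 CPM in the T cells. Of 7150 genes tested, 775 were at least 2-fold higher in NK cells (10.8%) and 325 at least 2-fold lower (4.55%). With UMIs in at least 20 cells of the higher group, 745 (10.4%) and 300 (4.2%) remained. The NK cells of these pairs were deeper than most, and Scrublet marked 29 of them against 16 of the T cells.

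Of 8 tested chemokine genes and 10 tested granule genes, 6 each were at least 2-fold higher in the NK cells, against 10.8% of all genes, and none at least 2-fold lower. Among the chemokine genes so counted, Cxcl9 had 239 of its 273 NK cell UMIs in 1 cell and Cxcl10 155 of 184. Cxcl10 had UMIs in 12 NK cells and 20 T cells. Ccl1 (0.63, 0.53 to 0.74) and Srgn, which encodes the granule proteoglycan serglycin (0.82, 0.80 to 0.85), were lower. Gzma stood at 3131 CPM in NK cells and 378.0 CPM in T cells (ratio 8.28, 7.72 to 8.89), Prf1 at 920.8 and 97.2 CPM (9.47, 8.25 to 10.9) and Gzmb at 4783 and 776.0 CPM (6.17, 5.86 to 6.48). Without the cells marked by Scrublet the ratio of Gzma was 18.75. Ccl3 was at 10419 and 3957 CPM (2.63), Xcl1 at 13392 and 5303 CPM (2.53), Ccl5 at 8127 and 2675 CPM (3.04) and Csf2 at 47.99 and 10.4 CPM (4.63, and 9.93 without hashtag 11). Ccl4 differed less, at 27879 and 19525 CPM (1.43). Against the 96 T cells with a Cd8a or Cd8b1 UMI alone, Ccl3 had a ratio of 1.91, Xcl1 of 1.575, Ccl4 of 0.96 and Csf2 of 7.115.

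The T cells had other cytokines. Il2, the T cell growth factor, stood at 1725 CPM in T cells and 10.4 CPM in NK cells (ratio 0.0060), with UMIs in 127 and 8 cells. The ratio was 0.035 both with no matching and against the T cells with a Cd8a or Cd8b1 UMI. Cd40lg, which licenses dendritic cells, was at 329.7 and 4.75 CPM, and Tnf at 78.6 and 17.3 CPM (ratio 0.22, 0.127 without cells marked by Scrublet and 0.142 with no matching). Il21, which acts on B cells, had 289 UMIs in T cells and none in NK cells. Against a floor of 3 UMIs over the group its ratio was 0.0104, and the upper bound of its interval was 0.01285. Nr4a3 (0.58), Nr4a1 (0.64), Zfp36l1 (0.57) and Nfkbid (0.31), which were higher with high Ifng among NK cells, were higher still in the T cells. Tnfsf14 (0.97, 0.80 to 1.18) and Cd27 (0.99, 0.79 to 1.25) had intervals that span 1.

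By the same kind of rule, the 8 genes furthest above T cells were Klrb1f, Sh2d1b1, Scimp, Klra4, Fcer1g, Tyrobp, Sema6a and Tfeb, with ratios between 25.5 and 50.03. Fcer1g, the signalling chain of activating receptors, had a UMI in 191 of 208 NK cells and 20 of 208 T cells. The 8 furthest below were Gpm6b, Il2, Tshz2, Plagl1, Il21, Nrn1, Cd40lg and Klk8. Plagl1, a zinc finger factor, had UMIs in 77 T cells and 2 NK cells.

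**Figure D5:**
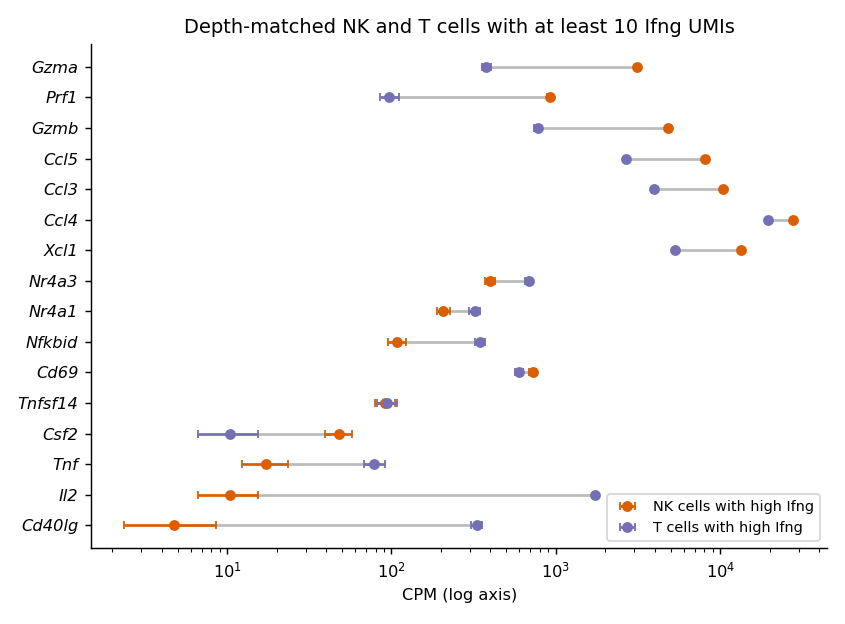
CPM (x axis, log scale) of 16 genes (rows) in 208 NK cells and 208 depth-matched T cells, all with at least 10 Ifng UMIs. Points show the summed level and lines the 95% counting interval. Gzma, Prf1 and Gzmb lie further right in NK cells (3131, 920.8 and 4783 CPM) and Il2 and Cd40lg in T cells (1725 and 329.7 CPM).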

How the data were processed

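The authors counted UMIs per gene and hashtag and barcode with Cell Ranger (7.0.0 in the header of the matrix, 7.2.0 in the submitters' processing notes) and deposited these counts without normalization. Reads were not used here. The deposited counts came from 1 pool, with 16829 barcodes, 32285 genes and 4 hashtags; the median depth was 6334 UMIs per barcode.

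CPM left Ifng out of the total. Cells were paired 1:1 without reuse, the smaller group choosing, by the nearest log10 depth within 0.05. Ratios carry the exact conditional interval of 2 Poisson counts, levels the exact Poisson interval and shares the exact Clopper-Pearson interval, at 95%. Where 1 group had no UMI the ratio used a floor of 3 UMIs. The ratio was tested on simulated data. Named genes were those of fixed lists and the highest and lowest ratios with UMIs in at least 20 cells and 1 direction in all hashtags. Hashtags were called with HTODemux at quantile 0.85 (Seurat 5.3.0, R 4.3.3), doublets with Scrublet at an expected rate of 0.1 (scanpy 1.11.5). Python 3.11.15, NumPy 2.4.6, SciPy 1.17.1 and matplotlib 3.10.9 were used. The members, lists and rules were chosen with earlier results of these data known. Pairing T cells to their nearest NK cells, the depth range of 4000 to 8000 UMIs and the removal of each gene's richest cell were chosen after seeing the data. A few genes are not reported here.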

Additional observations from a re-analysis of the deposited data

Results flagged for a closer look

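Among the 4 hashtags, 1 value stood apart from the other 3 for 4 genes, by its gap to the nearest value relative to the range. The ratio of CPM between NK cells with high and low Ifng was 23.9 for Dnm3 in hashtag 9, 5.71 for Pip5k1b in hashtag 12 and 0.148 for Cd81 in hashtag 11, where the other 3 hashtags had no Cd81 UMI in cells with high Ifng. For Nr4a1 it was 1.33 in hashtag 12 and between 1.51 and 1.53 in the others. Chance flags about 1 in 20 such groups of values without ties, and many genes were looked at. For Cd81 the other 3 hashtags tie, so its flag follows from the rule.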

How the results depend on the processing

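With 1 pool, settings were compared by value only. Of 630 values of 32 named genes over 20 settings, 476 stayed within the 95% counting interval of the main value and 146 lay outside it, 12 of these on the other side of 1. Most of the 12 were values of Gzma, which was near 1 and went down to 0.82 without cells with a T cell receptor UMI. The other 8 were values of genes past 2-fold that changed side of 1. S100a8 was at 1.03 with cells of 1 hashtag only, 1.02 with a threshold on the share of Ifng in a cell, and 1.09 with high Ifng set at 20 UMIs. S100a9 was at 1.03 with the share threshold, 1.19 without cells with a T cell receptor UMI and 1.04 with high Ifng at 20 UMIs. Dnm3 was at 0.28 with the share threshold and Tex9 at 1.16 with high Ifng at 5 UMIs and low at 1 to 4. No ratio was taken where both groups had 3 UMIs or fewer, as for Trac without cells with a T cell receptor UMI. Beyond the 32 genes, in 1 setting each Havcr2 was at 0.83, Itgam at 1.06, Socs1 at 0.91, Il7r at 1.35, Tcf7 at 1.62, Rc3h2 at 1.17 and Stim1 at 1.15, and Emb was above 1 in 4 settings, up to 1.29. Over all settings Ccl3 ranged from 2.84 to 7.32, Ccl4 from 1.97 to 4.43 and Xcl1 from 1.75 to 2.90.

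The cells with high Ifng numbered 521 with 1 hashtag only, 572 with at least 4 UMIs of Ncr1 and Klre1, and 178 without T cell receptor UMIs. They held 84.2% of the Ifng UMIs of the gate without Scrublet doublets, 79.6% with the share threshold, 82.3% without T cell receptor UMIs and between 84.2% and 85.1% with 1 hashtag left out in turn. Genes at least 2-fold higher and lower numbered 19 and 73 when cells were thinned to 2000 UMIs, 131 and 383 with a minimum of 20 UMIs, and 12 and 24 with 200 UMIs. There were 69 higher genes with no matching and 24 with at least 20 cells required, and 94 lower genes with 1 hashtag only and 67 without T cell receptor UMIs. Against T cells there were 1235 higher genes with no matching, 1240 higher and 546 lower with 20 UMIs, and 332 and 128 with 200 UMIs. The causes were not tested beyond the fewer or more genes and cells that each setting holds. The labels give no replicate numbers, so no replicate block was fitted. Depth limits genes under about 50 UMIs over both groups, which were not counted.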
